A study of Mus musculus with 16 samples.

Results

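Expression of 40 genes of mitosis and the spindle was followed in whole mouse skin on 16 Affymetrix Mouse Expression Set 430 A arrays. The genes were a list fixed by name, with 1 probe set per gene, the brightest on average among those annotated with that symbol alone. Of the 40 genes, 38 had such a probe set, and 37 lay above the filter on dim probe sets, among 9058 genes tested in all. Ccnb1 (cyclin B1) and Cdca8 (borealin) had no probe set under a single symbol and are not analysed here, and Cenpe lay below the filter.

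The skin came from D2 line K14deltaNB-cateninER transgenic mice and from wild type C57BL/6 mice, after 0, 1 or 7 days of 4-hydroxytamoxifen (4OHT). The transgene is a stabilised, N-terminally truncated β-catenin fused to the ligand-binding domain of the oestrogen receptor, so that 4OHT switches the fusion protein on. The study asked what conditional activation of β-catenin in adult epidermis does to gene expression. The transgenic groups held 2 arrays at day 0, 3 at day 1 and 3 at day 7, and the wild-type groups held 3 at day 0, 3 at day 1 and 2 at day 7. Both genotypes received 4OHT in the day 1 and day 7 groups, and neither in the day 0 groups. The keratin 14 promoter is active in basal keratinocytes and the outer root sheath, whereas the RNA came from all cells of the skin. In such bulk RNA, more dividing cells and more RNA of these genes per cell cannot be told apart. The transgenic mice were of 1 line, the labels give no age, sex or litter, and no group received vehicle alone. In every comparison of the genotypes an effect of the transgene therefore cannot be told apart from one of the line or its background. In every comparison of days within a genotype an effect of 4OHT cannot be told apart from one of vehicle, handling or time. The labels name a single mouse for some arrays and mice for others, so each p-value reflects only how far these samples spread, and part of that spread may be technical.

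Cells enter mitosis when the kinase Cdk1, bound to a B-type or A-type cyclin, is switched on. Aurora and Polo-like kinases then build the spindle, kinetochores attach chromosomes to its microtubules, and the spindle checkpoint holds the anaphase promoting complex inactive until all chromosomes are attached. That complex, with its activator Cdc20, then marks cyclin B for destruction, and central spindle proteins organise cytokinesis. Many of these genes are transcribed only late in the cell cycle. In resting adult skin, dividing cells are mainly basal keratinocytes, and in growing hair follicles mainly matrix cells, which divide quickly.

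Promoter windows from RefSeq (GRCm38.p6), 300 bases around the annotated start, were found for 31 of the 37 genes tested. Ccna2, Aurkb, Kif20a, Tpx2, Incenp and Smc4 were not in that table. Shown are 5 of the genes described below, the first 5 with a window in a fixed order of genes. Their windows differ in the letters known from late cell-cycle promoters. Capitals mark CCAAT (the NF-Y box; ATTGG where it lies on the opposite strand) and TTTGAA or TTTAAA (core letters of the cell cycle homology region). Windows are written 5′ to 3′ on the strand of the gene.
Ccnb2, chr9:70421505-70421804, minus strand: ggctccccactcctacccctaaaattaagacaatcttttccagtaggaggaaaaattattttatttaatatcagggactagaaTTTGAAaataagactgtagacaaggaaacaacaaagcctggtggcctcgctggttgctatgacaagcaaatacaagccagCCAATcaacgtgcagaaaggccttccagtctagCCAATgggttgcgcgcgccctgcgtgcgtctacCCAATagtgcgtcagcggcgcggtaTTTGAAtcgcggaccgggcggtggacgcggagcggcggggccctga
Cdc20, chr4:118437294-118437593, minus strand: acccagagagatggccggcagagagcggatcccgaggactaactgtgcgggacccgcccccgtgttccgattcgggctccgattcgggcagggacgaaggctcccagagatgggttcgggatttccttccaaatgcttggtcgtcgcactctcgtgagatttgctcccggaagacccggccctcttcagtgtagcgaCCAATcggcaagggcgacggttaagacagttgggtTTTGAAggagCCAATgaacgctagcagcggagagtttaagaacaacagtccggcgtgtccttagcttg
Plk1, chr7:122159185-122159484, plus strand: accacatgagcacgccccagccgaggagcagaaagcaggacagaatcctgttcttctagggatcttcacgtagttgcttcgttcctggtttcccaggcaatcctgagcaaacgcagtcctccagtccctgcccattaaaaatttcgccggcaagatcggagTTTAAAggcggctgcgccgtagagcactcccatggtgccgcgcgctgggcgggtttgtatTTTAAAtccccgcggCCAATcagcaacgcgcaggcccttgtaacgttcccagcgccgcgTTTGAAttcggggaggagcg
Birc5, chr11:117848987-117849286, plus strand: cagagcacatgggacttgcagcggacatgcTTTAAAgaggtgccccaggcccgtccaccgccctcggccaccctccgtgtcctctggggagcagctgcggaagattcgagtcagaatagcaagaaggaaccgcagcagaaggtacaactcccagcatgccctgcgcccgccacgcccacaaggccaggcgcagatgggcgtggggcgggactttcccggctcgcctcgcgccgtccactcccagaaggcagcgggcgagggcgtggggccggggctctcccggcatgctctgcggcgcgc
Cdk1, chr10:69352863-69353162, minus strand: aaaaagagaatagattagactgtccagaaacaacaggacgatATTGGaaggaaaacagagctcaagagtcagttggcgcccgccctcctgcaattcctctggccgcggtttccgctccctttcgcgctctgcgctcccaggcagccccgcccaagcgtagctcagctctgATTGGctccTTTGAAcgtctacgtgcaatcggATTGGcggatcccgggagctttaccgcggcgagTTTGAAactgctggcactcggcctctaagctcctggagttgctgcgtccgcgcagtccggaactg

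Ccnb2 held CCAAT at positions -87, -54 and -21 from its start and TTTGAA at -167 and 5. Cdk1 held CCAAT on the opposite strand at -208, -80 and -48, with TTTGAA at -71 and -15. Cdc20 held TTTGAA at -18 between a CCAAT at -53 and another at -8. Plk1 held TTTAAA at -89 and -29, CCAAT at -14 and TTTGAA at 31, and Birc5 held a single TTTAAA at -220. Searched on both strands, and with matches that overlap each other both counted, CCAAT lay in 26 of the 31 windows (83.9%), against 38.1% of 9888 windows of genes on the array. TTTGAA lay in 25 (80.6%) against 13.0%, and TTTAAA in 7 (22.6%) against 9.99%. CCAAT together with TTTGAA or TTTAAA lay in 23 windows (74.2%) against 8.4%. These are shares of letters in a fixed window and were not tested.

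Trimmed mean intensities of the arrays ran from 359 to 547.9 before they were scaled to 1 value. The ratio of 3' to 5' signal ran from 0.884 to 1.26 for Gapdh and from 1.29 to 1.87 for actin, highest for actin on replicate 3 of transgenic day 1. Markers of basal epidermis, dermal fibroblasts, fat and muscle were all bright, with list means of at least 11.37, 11.27, 9.26 and 12.32 (log2) on every array, so the RNA held the layers that whole skin holds. Below, intensities are scaled values, and changes are differences of log2(intensity + 32) with the standard error (SE) of a limma fit over all arrays. Because 32 is added, the change of a dim gene is smaller than the ratio of its intensities. A gene rose or fell where its Benjamini-Hochberg adjusted p, over all 9058 genes, was under 0.05.

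After 7 days of 4OHT nearly the whole list rose in transgenic skin. Of 37 genes, 36 were higher than at day 0 and 0 were lower, where 18.6% of all genes tested rose, 20.1% fell and 38.7% changed either way. The median change was 1.78, against 0.01 for all genes. Kif20a, Ndc80 and Nek2 passed the filter on dim probe sets through the transgenic day 7 arrays alone, so they had to be high there to be tested, and counts with them are a description. Of the 34 genes that passed the filter without those arrays 33 rose, where 17.4% of all genes that passed it so did, and their median was 1.89. Among the genes that changed, 32 did so by at least 2-fold and 14 by at least 4-fold, as did 8.13% and 1.36% of all genes in either direction. For 36 of the 37 genes every day 7 array lay above both day 0 arrays, which held for 29.9% of all genes. Ttk was the exception in both counts. In every one of the 37 genes the highest of the 6 group means was that of transgenic day 7. For Kif20a, Ndc80 and Nek2 the filter favoured this order, and its share among all genes was not counted.

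**Figure D1:**
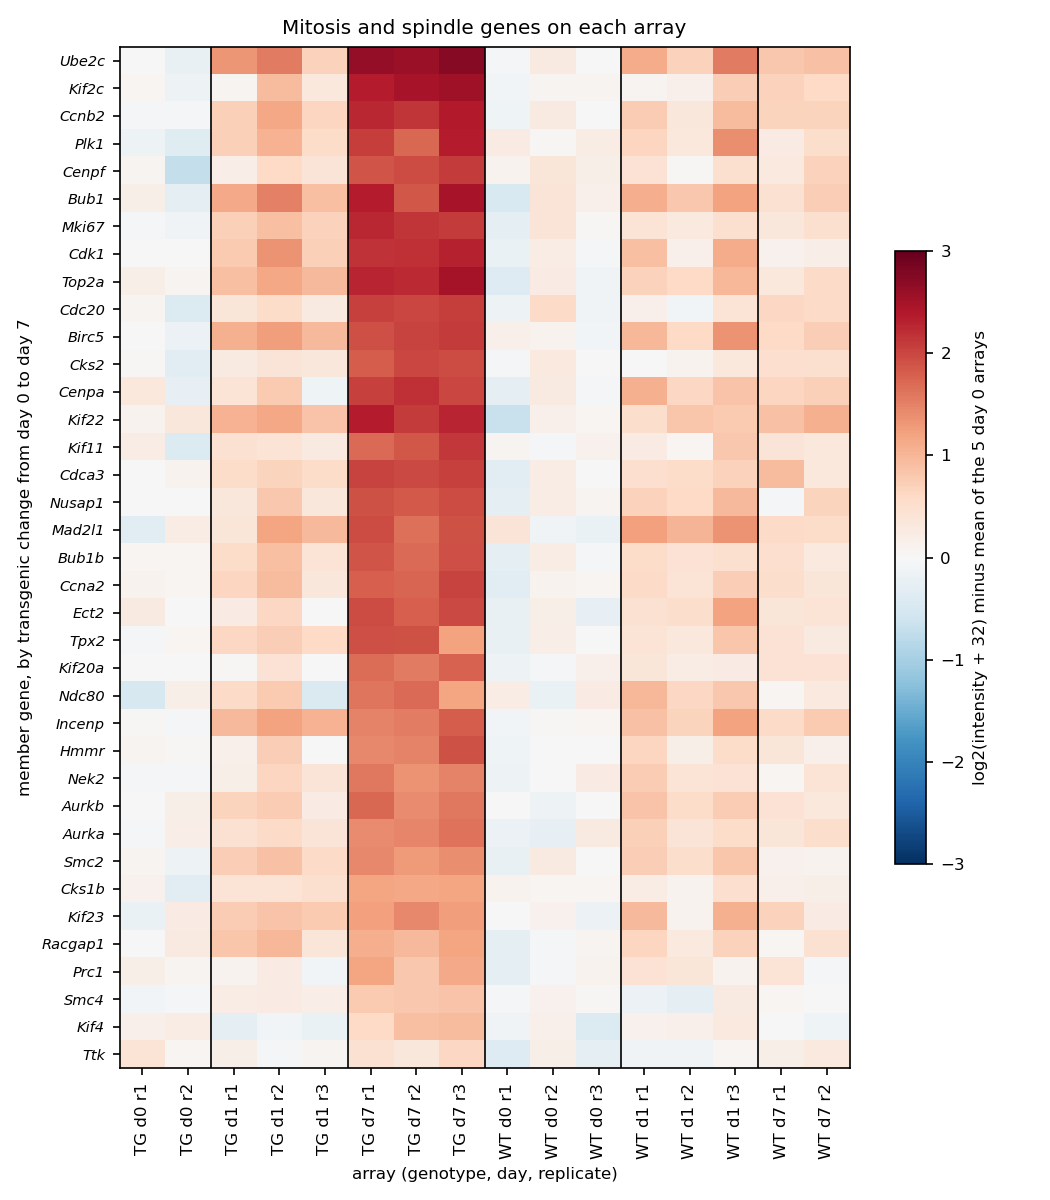
Each row is 1 of the 37 genes and each column 1 array (TG transgenic, WT wild-type, d day, r replicate), with colour giving log2(intensity + 32) minus the mean of the 5 day 0 arrays of both genotypes. The 3 transgenic day 7 columns are dark in nearly every row, the day 1 columns of both genotypes are pale red in most, and Ttk at the bottom stays near 0 throughout.

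The cyclin-dependent kinase core rose as a group, 5 of 5 tested genes, with a median change of 2.07. Cdk1 is the kinase that drives entry into mitosis. Its intensity was 226 and 233 on the transgenic day 0 arrays, 418, 632 and 395 at day 1, and 1150, 1160 and 1260 at day 7. In wild-type skin it was 195, 275 and 222 at day 0, 461, 255 and 533 at day 1, and 253 and 269 at day 7. The 3 transgenic times did not overlap, while the wild-type day 7 arrays lay inside the wild-type day 0 range. The transgenic change to day 7 was 2.22 (SE 0.23, adjusted p = 2.34e-06).

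Ccnb2 encodes cyclin B2, a partner of Cdk1. Its transgenic intensities were 141 and 144 at day 0, 265, 373 and 250 at day 1, and 833, 765 and 906 at day 7. Its wild-type intensities were 132, 185 and 147, then 274, 198 and 321, then 255 and 255. All arrays from treated skin lay above all day 0 arrays of their genotype. The change to transgenic day 7 was 2.31 (SE 0.18, adjusted p = 1.24e-07). Ccna2 (cyclin A2) rose by 1.77 (SE 0.16), and the small Cdk-binding subunits Cks2 and Cks1b rose by 2.07 (SE 0.13) and 1.29 (SE 0.12).

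Of the mitotic kinases Plk1, Aurka, Aurkb and Bub1 rose, as did Nek2, which was tested only because it was bright at transgenic day 7. Plk1, the Polo-like kinase of centrosomes and kinetochores, had transgenic intensities of 65.6 and 52 at day 0, 144, 191 and 127 at day 1, and 419, 322 and 525 at day 7. The wild-type values were 96.2, 79.8 and 94.5 at day 0, 138, 102 and 250 at day 1, and 96.1 and 125 at day 7. Transgenic times were separate from each other, and wild-type day 7 overlapped wild-type day 0. Its transgenic change to day 7 was 2.30 (SE 0.26, adjusted p = 4.63e-06).

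Aurka, the Aurora kinase of spindle poles, had transgenic intensities of 107 and 134 at day 0, 165, 181 and 156 at day 1, and 350, 367 and 413 at day 7. In wild-type skin it had 96, 89 and 141 at day 0, 205, 156 and 179 at day 1, and 153 and 176 at day 7. Both treated times lay above day 0 in each genotype, and transgenic day 7 lay above every other array. The change to transgenic day 7 was 1.43 (SE 0.16, adjusted p = 4.72e-06). Nek2, a centrosomal kinase, rose by 1.52 (SE 0.19).

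Ttk, the checkpoint kinase also called Mps1, behaved unlike the rest of the list. Its transgenic intensities were 302 and 233 at day 0, 254, 214 and 234 at day 1, and 314, 288 and 360 at day 7. Wild-type skin gave 163, 253 and 179, then 202, 205 and 231, then 253 and 280. Transgenic day 7 overlapped day 0, and the change of 0.24 (SE 0.16, adjusted p = 0.247) did not pass. Against day 1 it was 0.41 higher at day 7 (SE 0.14, adjusted p = 0.0282).

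The chromosomal passenger complex, which corrects faulty attachments and later acts at the cleavage site, rose in 3 of 3 tested subunits. Birc5 (survivin) had transgenic intensities of 160 and 137 at day 0, 366, 424 and 346 at day 1, and 701, 750 and 796 at day 7. Its wild-type intensities were 182, 172 and 150, then 348, 256 and 451, then 260 and 285. No treated array of either genotype overlapped its day 0 arrays. Birc5 rose by 2.12 to transgenic day 7 (SE 0.17, adjusted p = 1.35e-07).

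Incenp, the scaffold of the complex, gave 269 and 255 at transgenic day 0, 551, 651 and 581 at day 1, and 801, 834 and 1000 at day 7. In wild-type skin it gave 248, 274 and 279, then 513, 442 and 649, then 410 and 475. Day 0, day 1 and day 7 were separate in transgenic skin, with a change from day 0 of 1.09 (SE 0.14) at day 1 and 1.63 (SE 0.14) at day 7. Aurkb, the kinase of the complex, rose by 1.49 at transgenic day 7 (SE 0.15).

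Of the spindle checkpoint, which delays anaphase, 3 of 4 genes rose. Mad2l1 encodes the protein that binds and holds Cdc20. It gave 123 and 194 at transgenic day 0, 218, 407 and 346 at day 1, and 717, 575 and 691 at day 7. Wild-type skin gave 218, 146 and 135, then 420, 358 and 457, then 253 and 248. Wild-type day 1 lay above both other wild-type times, and transgenic day 7 above all. The transgenic change to day 7 was 1.88 (SE 0.22, adjusted p = 8.76e-06).

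Bub1, a kinetochore checkpoint kinase, gave 48.9 and 27.1 at transgenic day 0, 125, 171 and 100 at day 1, and 333, 230 and 361 at day 7. Its wild-type values were 19.9, 61.8 and 47.2, then 121, 93.6 and 133, then 66.6 and 86.8. The 3 times did not overlap in either genotype, but day 1 was the highest in wild-type skin and day 7 in transgenic skin. The transgenic change to day 7 was 2.28 (SE 0.26, adjusted p = 5.92e-06), and for Bub1b (BubR1) it was 1.78 (SE 0.16).

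Ube2c, Cdc20 and Cdca3, grouped here around the anaphase promoting complex, all rose, with a median of 2.20 over 3 genes. Medians of the Cdk core (2.07) and of the centromere and kinetochore genes (2.04) were close, and the order of roles was not tested. Ube2c, the ubiquitin-conjugating enzyme that works with the anaphase promoting complex, made the largest change of the list. It gave 159 and 133 at transgenic day 0, 452, 540 and 281 at day 1, and 1170, 1130 and 1240 at day 7. Wild-type skin gave 155, 202 and 160, then 383, 277 and 532, then 304 and 323. Treated arrays lay above day 0 in both genotypes, and only those of transgenic day 7 exceeded 1000. The change to transgenic day 7 was 2.77 (SE 0.23, adjusted p = 2.65e-07), and 42 of the 9058 genes rose more.

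Cdc20, the activator itself, gave 294 and 200 at transgenic day 0, 366, 418 and 337 at day 1, and 1240, 1220 and 1260 at day 7. In wild-type skin it gave 247, 423 and 256, then 313, 259 and 378, then 443 and 428. Wild-type day 1 lay within the day 0 range. The transgenic change to day 7 was 2.20 (SE 0.19, adjusted p = 4.53e-07). Cdca3, an F-box protein known for the turnover of the Cdk1 inhibitor Wee1, gave 150 and 162, then 231, 253 and 229, then 697, 674 and 709 in transgenic skin, a change of 1.95 to day 7 (SE 0.17).

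Of the centromere and kinetochore genes Cenpa and Cenpf rose. Cenpa, the histone H3 variant that marks centromeres, gave 190 and 118 at transgenic day 0, 202, 270 and 129 at day 1, and 697, 776 and 683 at day 7. Wild-type skin gave 112, 180 and 138, then 338, 239 and 288, then 245 and 259. Transgenic day 1 overlapped day 0 whereas wild-type day 1 did not. The change to transgenic day 7 was 2.04 (SE 0.23, adjusted p = 5.45e-06).

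Cenpf, of the outer kinetochore, gave 193 and 98.1, then 212, 291 and 244, then 751, 793 and 881 in transgenic skin. In wild-type skin it gave 195, 240 and 209, then 255, 184 and 267, then 228 and 309, and these 3 times overlapped. Its transgenic change to day 7 was 2.29 (SE 0.21). Ndc80, the microtubule-binding arm of the kinetochore, was dim, at 7.43 and 30.1 at transgenic day 0, 48.8, 62 and 8.48 at day 1, and 135, 145 and 92.8 at day 7. Wild-type skin gave 32.5, 15.8 and 33.6, then 77.8, 52.5 and 64.2, then 25.1 and 35.2. It passed the filter on 2 transgenic day 7 arrays and on no other array, so its change of 1.64 (SE 0.32), the widest SE of the list, is given as a description.

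Kinesin motors changed by 0.63 to 2.49 at transgenic day 7, and all 6 tested were past the threshold, among them Kif20a, tested only through those arrays. Kif2c (MCAK), which takes microtubules apart at kinetochores, gave 71.1 and 58.8 at transgenic day 0, 73.3, 162 and 93.6 at day 1, and 475, 519 and 546 at day 7. Wild-type skin gave 63.3, 74.3 and 73.7, then 74.5, 79.8 and 134, then 130 and 120. Transgenic day 7 stood apart from all other arrays, which stayed at or below 162. The change to transgenic day 7 was 2.49 (SE 0.22, adjusted p = 5.28e-07).

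Kif22, a motor on chromosome arms, gave 275 and 327, then 552, 600 and 477, then 1410, 1180 and 1350 in transgenic skin. It gave 145, 280 and 264, then 374, 475 and 455, then 488 and 557 in wild-type skin. The transgenic change to day 7 was 2.01 (SE 0.19). Kif11 (Eg5), which pushes spindle poles apart, rose by 1.99 (SE 0.21), the central spindle motor Kif20a by 1.65 (SE 0.17) and Kif23, of the centralspindlin complex, by 1.28 (SE 0.23). Kif4, a motor that condenses chromosomes, changed least of the genes that rose. It gave 204 and 217 at transgenic day 0, 144, 169 and 154 at day 1, and 289, 368 and 380 at day 7. Wild-type skin gave 167, 204 and 128, then 201, 206 and 228, then 181 and 162. Transgenic day 1 lay below day 0 and day 7 above it, by 0.63 (SE 0.15, adjusted p = 0.00393).

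Spindle assembly and cytokinesis genes rose in 6 of 6 cases, with a median of 1.62. Nusap1, which bundles spindle microtubules, gave 172 and 170, then 223, 326 and 226, then 735, 692 and 759 in transgenic skin. It gave 132, 203 and 184, then 296, 272 and 365, then 167 and 293 in wild-type skin, where day 7 overlapped day 0. It rose by 1.90 to transgenic day 7 (SE 0.20), and Tpx2, the activator of Aurora A, by 1.68 (SE 0.21). Ect2, which switches on RhoA for cytokinesis, gave 80.7 and 62.3, then 79.6, 112 and 61.7, then 332, 292 and 338 in transgenic skin. It gave 47.9, 73.1 and 47.2, then 96.4, 102 and 183, then 87.5 and 91.3 in wild-type skin. In wild-type skin both treated times lay above day 0. In transgenic skin at day 1 it overlapped day 0, and at day 7 it was higher by 1.77 (SE 0.23). Hmmr, a hyaluronan receptor also found on spindles, rose by 1.55 (SE 0.20), and the central spindle proteins Racgap1 and Prc1 by 0.95 (SE 0.19) and 0.92 (SE 0.16).

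Chromosome structure genes rose in 4 of 4 cases. Mki67 encodes Ki-67, the surfactant of mitotic chromosomes used as a marker of dividing cells. It gave 442 and 424 at transgenic day 0, 765, 881 and 747 at day 1, and 2290, 2130 and 2060 at day 7. Wild-type skin gave 367, 605 and 464, then 611, 569 and 642, then 586 and 643. Wild-type treated arrays overlapped wild-type day 0, and the transgenic times were separate. The change to transgenic day 7 was 2.24 (SE 0.14, adjusted p = 2.18e-08).

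Top2a, the topoisomerase that untangles sister chromatids, gave 412 and 385, then 701, 855 and 743, then 1880, 1830 and 2210 in transgenic skin. It gave 269, 432 and 338, then 601, 570 and 757, then 458 and 555 in wild-type skin. Transgenic day 7 lay above every other array, and the change from day 0 was 2.21 (SE 0.16, adjusted p = 7.91e-08). Smc2, a condensin subunit, gave 335 and 280, then 542, 605 and 488, then 913, 814 and 887 in transgenic skin. Its transgenic times were separate, with a rise of 1.41 to day 7 (SE 0.14), and its partner Smc4 rose by 0.87 (SE 0.12).

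**Figure D2:**
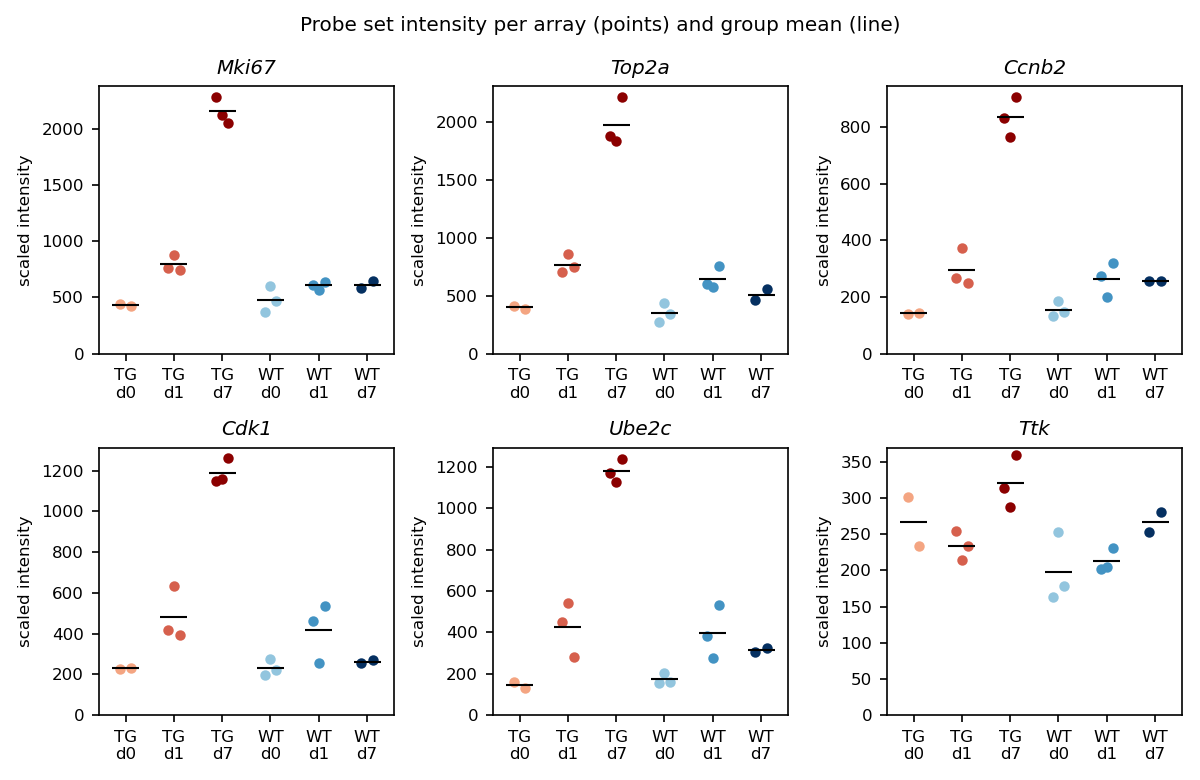
Scaled intensity of 6 genes on each array (points) with the group mean (line), for transgenic (TG) and wild-type (WT) skin at days 0, 1 and 7. Mki67, Top2a, Ccnb2, Cdk1 and Ube2c step up at both treated times in transgenic skin and reach their highest values at day 7, whereas for Ttk transgenic day 0 and day 7 overlap.

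The markers of other skin cells moved over the same interval, in which 18.6% of all genes rose and 20.1% fell. In transgenic day 7 skin 11 of 11 hair matrix and follicle genes rose, with a median change of 5.29 and a summed intensity of 32490 to 47330, against 868.6 to 1115 at day 0. None of these markers was at 0. Krt25, an inner root sheath keratin, went from 4.60 ± 3.71 (SD, n = 2) to 8650 ± 1030 (SD, n = 3). A gene as dim as this elsewhere could pass the filter only through the transgenic day 7 arrays. Such genes were not taken out, so the count of 11 is a description. Basal epidermal markers fell in 6 of 9 cases and rose in 0, with a summed intensity of 33940 to 34840 against 43670 to 50160 at day 0. In wild-type day 7 skin Dst (-0.87), Lamb3 (-0.60) and Col17a1 (-0.40) fell too, and the rest of the list did not pass. The summed intensity there was 37940 to 42230, against 46060 to 50220 at wild-type day 0. Of 7 melanocyte genes 5 rose, a description under the same limit of the filter. Fat, muscle and endothelial markers fell in 6 of 7, 6 of 8 and 7 of 9 cases. The part of these cell types in the rise of the mitotic genes was not tested. The count of 36 was 35 to 36 when any 1 array was left out, the lower value arising where Ndc80 dropped below the filter.

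From day 1 to day 7 in transgenic skin the list rose further. Of 37 genes, 35 were higher at day 7 and 0 lower, where 21.6% of all genes rose, and the median change was 1.23. Without Kif20a, Ndc80 and Nek2 it was 32 of 34, where 20.2% of all genes filtered alike rose. The largest changes were those of Kif2c (1.99, SE 0.20), Cenpa (1.73, SE 0.21), Cdc20 (1.65, SE 0.17) and Ect2 (1.62, SE 0.20). The smallest that passed were Ttk (0.41), Incenp (0.54, SE 0.13) and Smc4 (0.59, SE 0.11). Kif23 differed by 0.51 (SE 0.21, adjusted p = 0.0536) and Racgap1 by 0.36 (SE 0.17, adjusted p = 0.0962), and neither passed.

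One day of 4OHT was followed by a smaller rise in both genotypes. In transgenic skin 18 of 37 genes were higher at day 1 than at day 0 and 0 were lower, where 6.56% of all genes rose; the median change was 0.56. In wild-type skin 21 were higher and 0 lower, where 10.1% of all genes rose; the median was 0.63. Day 1 arrays lay wholly above day 0 for 29 genes in transgenic skin (19.2% of all genes), wholly below for Kif4, and for 27 in wild-type skin (18.3% of all genes). These comparisons share no array, and 13 genes rose in both, or 72.2% of those in the first list and 61.9% of those in the second. With 18 and 21 of 37 genes past the threshold, many would be shared in any case, and the overlap was not tested.

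The 13 genes were Birc5, Bub1, Bub1b, Ccna2, Ccnb2, Cdk1, Incenp, Kif22, Kif23, Mad2l1, Smc2, Top2a and Ube2c. Ube2c rose by 1.32 (SE 0.23, adjusted p = 0.00229) in transgenic and 1.04 (SE 0.21, adjusted p = 0.00283) in wild-type skin. Bub1 rose by 1.22 (SE 0.26) and 1.01 (SE 0.23). Birc5 rose by 1.19 (SE 0.17) and 0.91 (SE 0.15). Incenp, with non-overlapping arrays in both genotypes, rose by 1.09 (SE 0.14) and 0.91 (SE 0.13). Mad2l1 was the largest rise in wild-type skin, 1.18 (SE 0.20, adjusted p = 0.00114), and rose by 0.89 (SE 0.22) in transgenic skin.

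Past the threshold in transgenic skin alone were Plk1, Mki67, Cenpf, Cks1b and Cks2, and in wild-type skin alone Cenpa, Ect2, Aurkb, Nusap1, Cdca3, Racgap1, Aurka and Nek2. Passing in 1 genotype is no difference between genotypes, and the direct test of that difference is given below. Mki67 changed by 0.83 (SE 0.14, adjusted p = 0.0022) in transgenic and 0.35 (SE 0.13, adjusted p = 0.0647) in wild-type skin. Cdc20 passed in neither, at 0.56 (SE 0.19) and 0.06 (SE 0.17). Of the kinesins, Kif2c (0.50 and 0.30), Kif11 (0.47 and 0.31), Kif20a (0.14 and 0.29) and Kif4 (-0.37 and 0.31) passed in neither genotype. Of 6 spindle assembly and cytokinesis genes, Ect2, Nusap1 and Racgap1 passed in wild-type skin, by 0.83 (SE 0.20), 0.75 (SE 0.18) and 0.63 (SE 0.17), where transgenic skin gave 0.15 (SE 0.23), 0.50 (SE 0.20) and 0.60 (SE 0.19).

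The transgenic day 1 count rested on single arrays: it was 11 without day 0 replicate 1, 5 without day 0 replicate 2 and 9 without day 1 replicate 2, and 4 when the arrays were not scaled. Values of the list moved together between replicates. On transgenic day 1 replicate 2, 35 of 37 genes lay above their group mean, and on replicates 1 and 3 it was 11 and 4. On wild-type day 1 the numbers were 19, 2 and 31 for replicates 1, 2 and 3. Macrophage and monocyte markers rose in the same comparisons, 16 of 18 for transgenic mice and 17 of 18 for wild-type mice, with none at 0. Their summed intensity was 36700 to 53490 and 50060 to 54850 at day 1, against 23320 to 26900 and 25150 to 29510 at day 0. Their part in the rise at day 1 was not tested.

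**Figure D3:**
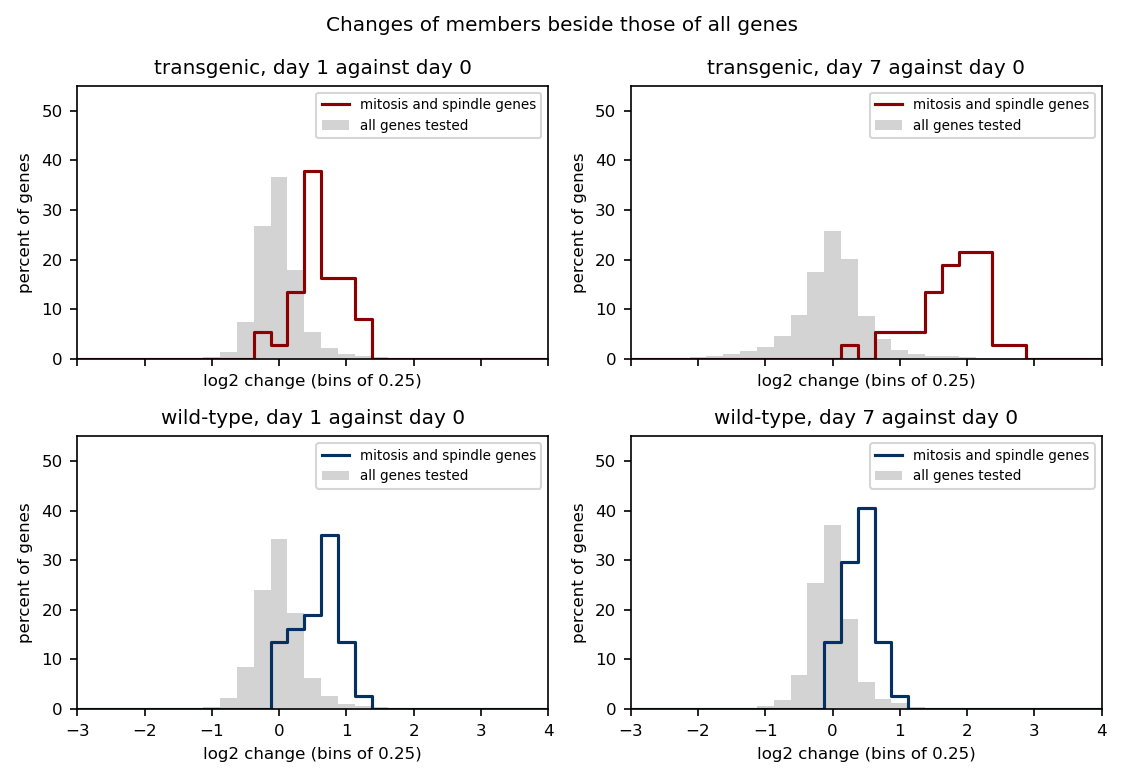
Percent of genes per bin of log2 change, for the 37 mitosis and spindle genes (lines) and all 9058 genes tested (grey), in each genotype at day 1 and day 7 against day 0; changes between -3 and 4 are shown. The list is shifted to the right of the grey bars, and overlaps them, in all 4 panels, with medians of 0.56 and 1.78 in transgenic and 0.63 and 0.43 in wild-type skin.

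The median of the list's group means (log2) in wild-type skin was 7.64 at day 0, 8.29 at day 1 and 8.15 at day 7, beside 7.55, 8.16 and 9.50 in transgenic skin. At wild-type day 7, 7 of 37 genes were higher than at day 0 and 0 lower, where 5.46% of all genes rose; the median was 0.43. They were Kif22 (1.12, SE 0.19, adjusted p = 0.0021), Ube2c (0.76, SE 0.23), Cdca3 (0.68, SE 0.17), Incenp (0.66, SE 0.14), Ccnb2 (0.63, SE 0.18), Birc5 (0.61, SE 0.17) and Top2a (0.53, SE 0.16). Cdca3 gave 110, 176 and 146 at wild-type day 0, 223, 230 and 257 at day 1, and 314 and 192 at day 7. Its 2 day 7 arrays lay on either side of day 1 and both above day 0. For 25 of the 37 genes the day 7 arrays lay wholly above day 0, as for 19% of all genes.

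Mki67 differed from wild-type day 0 by 0.36 (SE 0.14, adjusted p = 0.115), Cdk1 by 0.17 (SE 0.23, adjusted p = 0.683) and Plk1 by 0.22 (SE 0.26, adjusted p = 0.628). The count of 7 changed with single arrays: it was 3, 11 and 4 without day 0 replicates 1, 2 and 3, and 2 without either day 7 array. It was also 4 after quantile normalization and 1 with no scaling. Of 18 macrophage and monocyte markers 17 stayed higher than at day 0 in wild-type day 7 skin, at a summed intensity of 56630 to 56750, and their part was not tested.

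Against wild-type day 1, 1 of 37 genes was lower at day 7 and 0 higher, where 3.06% of all genes changed. It was the condensin subunit Smc2, with 267, 389 and 317 at day 0, 547, 471 and 588 at day 1 and 351 and 344 at day 7. Day 7 lay wholly below day 1 and inside the day 0 range. The fall of 0.57 on the log2 scale had an SE of 0.14 and an adjusted p of 0.0352. Without replicate 1 or 3 of day 1, or either day 7 array, 0 genes passed, and without day 1 replicate 2 the count was 2. The median of the list was -0.17, and 10 of the 37 values were above 0.

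**Figure D4:**
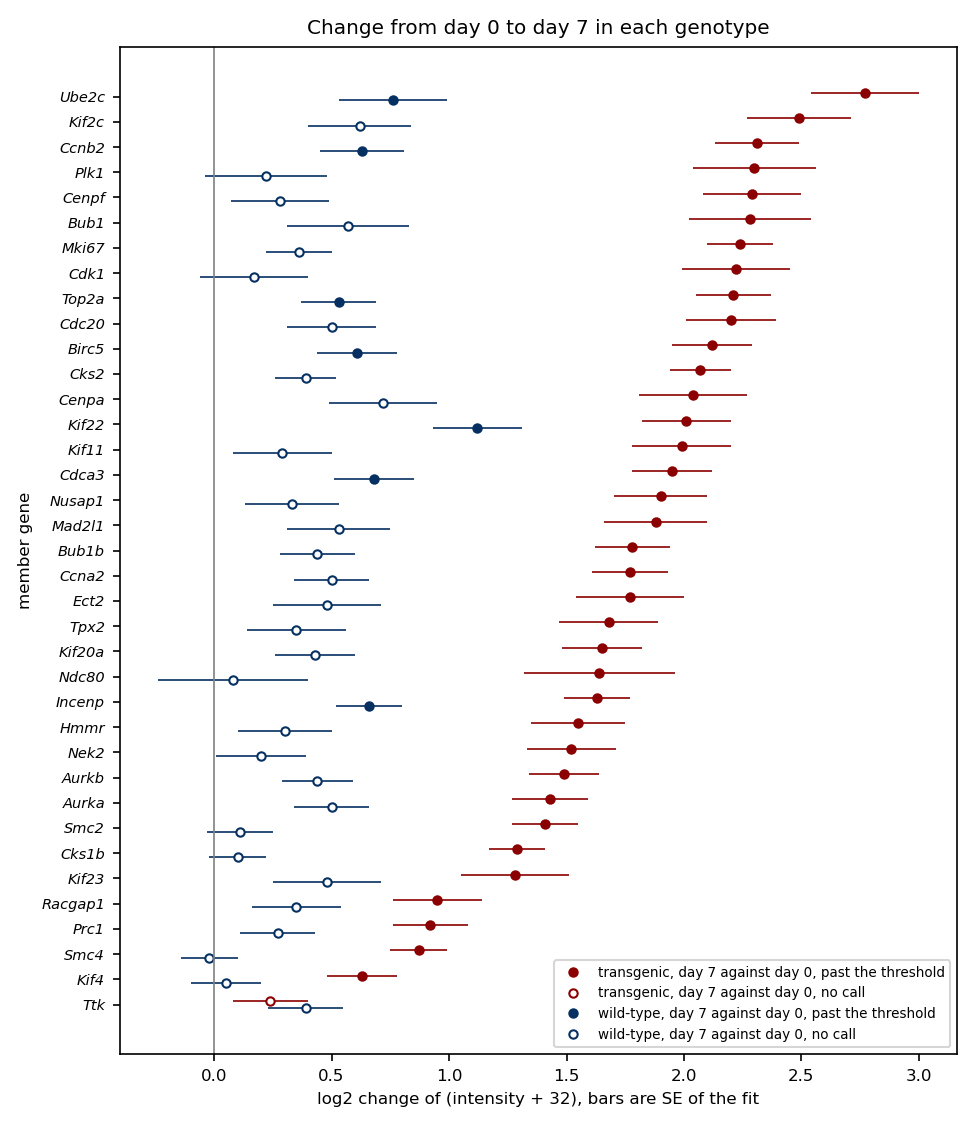
Change of log2(intensity + 32) from day 0 to day 7 for each of the 37 genes (bars, SE of the fit) in transgenic and wild-type skin; filled points passed the threshold. Transgenic points run from 0.24 (Ttk) to 2.77 (Ube2c), wild-type points from -0.02 (Smc4) to 1.12 (Kif22), and Ttk is the gene whose wild-type point lies to the right of its transgenic one.

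The genotypes were then compared directly. Before treatment 0 of 37 genes differed in the limma fit (0.011% of all genes did), and 2 had an unadjusted p under 0.05; the median difference was 0. At day 1 again 0 genes differed (1.31% of all genes did), 5 at an unadjusted p under 0.05. The test of whether the day 1 change itself differed by genotype passed for 0 genes (0.287% of all genes passed), with 6 at an unadjusted p under 0.05. Its median was 0.04 and the 95% intervals had half-widths of 0.35 to 0.91, so differences within these widths were not resolved. For Mki67 the difference in change was 0.48 (SE 0.19, adjusted p = 0.261), and for Cenpa it was -0.57 (SE 0.31, adjusted p = 0.39).

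At day 7, 36 of 37 genes were higher in transgenic than in wild-type skin and 0 lower, where 19.5% of all genes were higher; the median difference was 1.36. Without Kif20a, Ndc80 and Nek2 it was 33 of 34, where 18.3% of all genes filtered alike were higher. For all 37 genes, Ttk included, every transgenic day 7 array lay above both wild-type day 7 arrays, as for 31.6% of all genes. The largest differences were those of Cdk1 (2.06, SE 0.23), Top2a (1.90, SE 0.16), Ube2c (1.81, SE 0.23) and Kif2c (1.79, SE 0.22). Ttk differed by 0.24 (SE 0.16, adjusted p = 0.248). Over the same comparison 17 of 18 macrophage markers were lower in transgenic skin and 11 of 11 hair matrix markers higher, and their part was not tested. Of all genes 48.7% had an unadjusted p under 0.05 in either direction, a share that includes every gene lower past the threshold. The hair matrix count is again a description, because the filter could favour genes that were high at transgenic day 7.

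The change from day 0 to day 7 was larger in transgenic skin for 33 of 37 genes and smaller for 0, where 12.1% of all genes passed in that direction; the median difference was 1.32. Plk1 led with 2.08 (SE 0.36, adjusted p = 0.000882), before Cdk1 at 2.05 (SE 0.33), Cenpf at 2.02 (SE 0.29) and Ube2c at 2.00 (SE 0.33). Not past the threshold were Kif23 (0.80, SE 0.32), Racgap1 (0.60, SE 0.26), Kif4 (0.58, SE 0.22) and Ttk (-0.15, SE 0.22). For the change from day 1 to day 7 the count was 34 higher and 0 lower (14.2% of all genes were higher), led by Ect2 (1.97, SE 0.30) and Cenpa (1.90, SE 0.31). Without Kif20a, Ndc80 and Nek2 these 2 counts were 30 and 31 of 34, where 11.1% and 13% of all genes filtered alike passed. Kif23, Racgap1 and Ttk did not pass there.

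Lists of related genes, which share no gene with the 40, gave the setting. Of 41 other mitosis genes tested, 34 rose and 3 fell in transgenic day 7 skin, where 18.6% of all genes rose and 20.1% fell. Their median was 1.25. Any genes of this list that passed the filter through the transgenic day 7 arrays alone were not taken out, so these counts are a description. Melk rose by 2.39 (SE 0.19), Pbk by 2.22 (SE 0.19), the cohesin regulator Cdca5 by 1.93 (SE 0.14), and the condensin subunit Ncaph by 1.68 (SE 0.13). The genes that fell were Wee1, the kinase that holds Cdk1 inactive (-0.71, SE 0.19), Pttg1, which encodes securin (-0.49, SE 0.14), and the kinetochore gene Zwint (-0.49, SE 0.14); all 3 are named after their values were seen. At day 1, 7 of the 41 rose in the transgenic comparison and 14 in the wild-type one, where 6.56% and 10.1% of all genes rose. In wild-type day 7 skin 1 rose and 2 fell, neither above the 5.46% and 5.96% of all genes.

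S phase genes, which copy DNA and supply its precursors, rose in 24 of 26 cases at transgenic day 7 and fell in 0. Of all genes 18.6% rose, and the median of the list was 0.72. Genes of this list that passed the filter through the transgenic day 7 arrays alone, if any, were not taken out, so the count is a description. Rfc4, of the clamp loader, rose by 1.47 (SE 0.16), Uhrf1 by 1.54 (SE 0.18), and the ribonucleotide reductase subunits Rrm2 and Rrm1 by 1.20 (SE 0.14) and 1.08 (SE 0.13). In wild-type day 7 skin 0 rose and 5 fell against day 0 (19.2%, where 5.96% of all genes fell): Prim1 (-0.65, SE 0.10), Ung (-0.73, SE 0.16), Pole (-0.64, SE 0.17), Lig1 (-0.75, SE 0.20) and Rfc2 (-0.32, SE 0.09). Their median there was -0.18, beside 0.43 for the 37 mitosis and spindle genes. The difference between the 2 lists was not tested.

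Of 16 cell-cycle transcription factors tested, 7 rose and 2 fell at transgenic day 7. Of all genes 18.6% rose and 20.1% fell, and the falls in this list and those below were not above that share. The limit of the filter given for the S phase genes holds for the rises in these lists too. Mybl2 (B-Myb), a factor of late cell-cycle genes, rose by 1.24 (SE 0.15), and the pocket protein Rbl2 (p130), of quiescent cells, fell by 0.65 on the log2 scale (SE 0.11). Of 12 core subunits and co-activators of the anaphase promoting complex 4 rose, led by the activator Fzr1 at 0.86 (SE 0.20). Of 13 cohesin and spindle tubulin genes 7 rose and 1 fell, with Stmn1, which destabilises microtubules, at 1.53 (SE 0.10) and the tubulin Tubb5 at 0.93 (SE 0.09).

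Of 14 Cdk inhibitors and quiescence genes 2 rose and 2 fell at transgenic day 7, 14.3% each way, which is not above the 18.6% of all genes that rose and the 20.1% that fell. Gadd45g rose by 1.27 (SE 0.16) and Ccng1 fell by 1.06 on the log2 scale (SE 0.12). At day 1 Gadd45g rose in both genotypes, by 1.55 (SE 0.16) in transgenic and 0.77 (SE 0.14) in wild-type skin. Cdkn1b, which encodes the inhibitor p27, fell by 0.81 at transgenic day 1 (SE 0.17, adjusted p = 0.00844) and differed by 0.05 from day 0 at transgenic day 7.

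**Figure D5:**
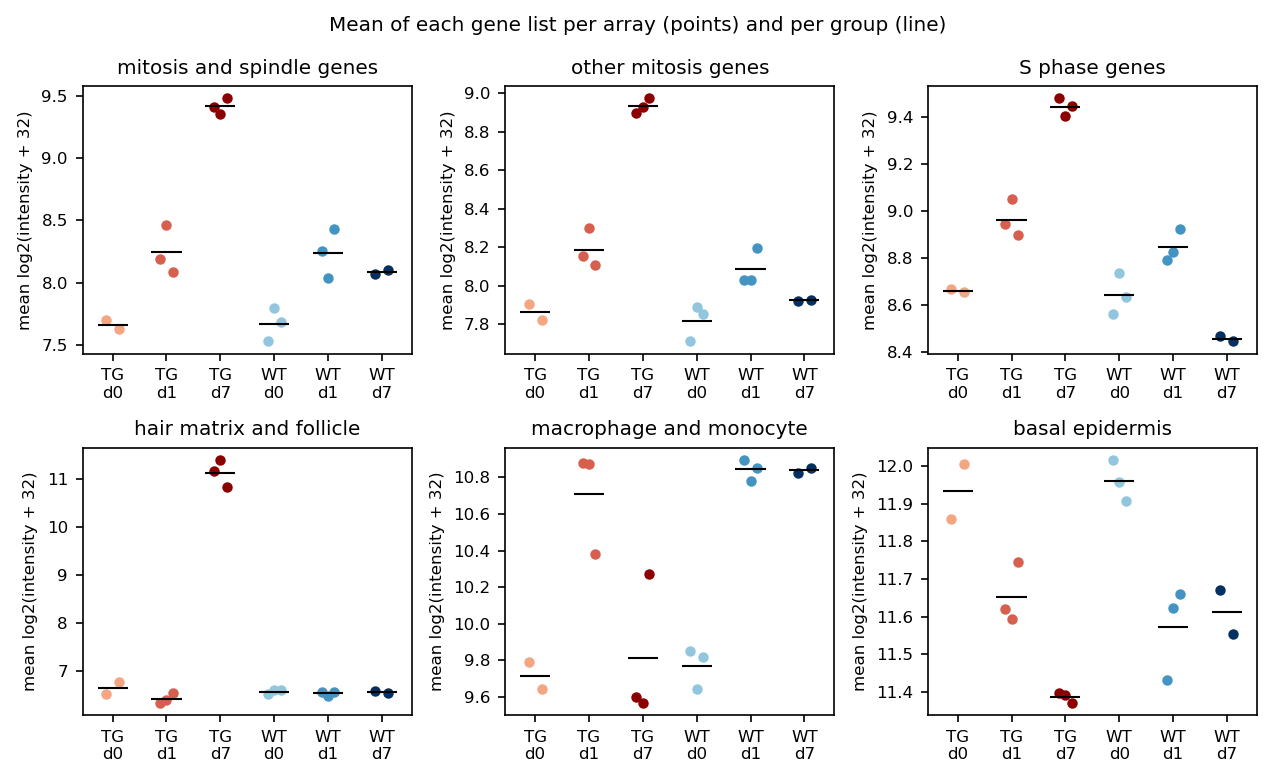
Mean log2(intensity + 32) of the tested genes of 6 lists on each array (points) and per group (line), for transgenic (TG) and wild-type (WT) skin. The mitosis and spindle, other mitosis, S phase and hair matrix lists are highest at transgenic day 7, and the macrophage list is high at day 1 in both genotypes and at wild-type day 7; the vertical scales differ between panels and do not start at 0.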

How the data were processed

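Groups follow the genotype and day that the sample titles give. The deposited values are the authors' intensity of each of 22690 probe sets (64 of them controls) on a linear scale; the software behind them and any scaling were not given in the sources used here. Arrays were scaled to 1 trimmed mean (2% off each end; factors 0.825 to 1.26) and taken as log2(intensity + 32). A probe set was kept if it exceeded its array's 40th percentile on 2 or more arrays, as 15058 did. Of these 13882 had 1 symbol in the platform annotation, and the brightest per gene left 9058 genes. All 16 arrays were fitted in limma 3.58.1 (R 4.3.3; lmFit, eBayes with an intensity trend) as 6 group means with 10 residual degrees of freedom. The 12 comparisons were two-sided with Benjamini-Hochberg adjustment over all genes; the number of arrays limits precision. The genes, the 17 lists and the tests were chosen with earlier results of these data known. Values of every array are given for genes named in advance and for the 4 largest changes past the threshold per comparison; Ttk and Kif4 were added after their values were seen. From other lists, the genes of smallest p are named. Replicate numbers do not pair the samples. The fit was tested on simulated data. Alternatives were 27 in all. Figures were drawn with matplotlib 3.10.9.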

Additional observations from a re-analysis of the deposited data

Results flagged for a closer look

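Changes that differed between the genotypes, by the limma test of the difference itself (Benjamini-Hochberg adjusted), are collected here. From day 0 to day 7 the change was larger in transgenic skin for 33 of 37 mitosis and spindle genes, and from day 1 to day 7 for 34. The genes below were named in advance, but with earlier results of these data known, so their values are a description. The difference in the change from day 0 to day 7 (log2) was 2.08 for Plk1, 2.05 for Cdk1 and 2.00 for Ube2c. It was 1.87 for Mki67, 1.71 for Cdc20, 1.69 for Top2a and 1.68 for Ccnb2. It was 1.51 for Birc5, 1.35 for Mad2l1, 1.32 for Cenpa and 0.93 for Aurka.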

How the results depend on the processing

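The 12 counts of mitosis and spindle genes were recomputed under 27 alternatives, 16 of which left out 1 array; 302 of 324 recomputed counts stayed within 1.5 times, and no gene past the threshold reversed. Genes higher at transgenic day 1 numbered 18, with 4 under no further scaling and 5 to 20 when 1 array was left out. Genes higher at wild-type day 7 numbered 7, with 4 under quantile normalization, 1 under no further scaling, 4 under no filter, 11 with array weights, and 2 to 11 when 1 array was left out. The 1 gene lower at wild-type day 7 than at day 1 became 0 under no further scaling, no filter and the replicate block, and 0 to 2 when 1 array was left out. Between genotypes at day 1 the count was 0 to 1 when 1 array was left out (1 without wild-type day 1 replicate 3). Causes were not tested. Without scaling the median of all genes moved by up to 0.19. Deviations from the group mean correlated between samples of 1 replicate number at a median r of 0.03 over 36 pairs, 7 of them over 0.1. The arrays of replicates themselves correlated at 0.973 to 0.988. With a replicate block 13 genes rose at transgenic day 1 and 36 at transgenic day 7. Of the 36, 30 passed in every alternative; the other 6 were not tested under the stricter filter, and of them Kif4 did not pass without scaling. Signal limits what can be read for Kif20a, Ndc80 and Nek2, which exceeded the filter at transgenic day 7 alone.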

Other observations

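Cenpe, the kinetochore kinesin, lay below the filter, between 2.86 and 27.6 on the 16 arrays. Its intensity was 16.8 and 6.19 at transgenic day 0, 20.3, 13.1 and 2.86 at day 1, and 23.9, 27.6 and 13.7 at day 7, and the times overlapped. The 38 genes on the array had 69 probe sets in all. Of the 20 further probe sets above the filter, 19 rose at transgenic day 7 as the one used for their gene did, and 0 fell. The exception was a second probe set of Cdca3, and of all genes tested 18.6% rose. Further probe sets that passed the filter through the transgenic day 7 arrays alone, if any, were not taken out, so this count is a description. Of the genes without a call at day 1 in either genotype there were 11. Among them Cdc20, Kif2c, Kif11, Hmmr and Tpx2 rose by at least 1.55 (log2) at transgenic day 7. So did Kif20a and Ndc80, which were tested only through those arrays. Prc1, Smc4 and Kif4 rose by less, and Ttk did not pass.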
